A study of Mus musculus with 16 samples.

Results

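The deep-layer markers are 7 genes whose RNA labels projection neurons of cortical layers 5, 6 and 6b: Fezf2, Bcl11b, Etv1, Tbr1, Tle4, Crym and Ctgf. They were taken by symbol from a table of 21999 mouse genes, and all 7 were present. Expression was measured by poly(A) RNA sequencing of male mice at postnatal day 47, from the left hemisphere. The 16 libraries form 4 groups of 4: cortex with a conditional knockout (cKO) of Foxp1, a forkhead transcription factor gene, cortex of littermate controls, and cKO and control hippocampus. The knockout was directed to forebrain pyramidal neurons, and which other cells of the tissue keep the gene was not tested. The labels give no strain, driver of recombination, allele state of the controls or deleted part of Foxp1. Replicates of a genotype, 4 in each region, are described by the submitters as independent. Libraries are named by genotype, region and the DJ number of their titles, and no DJ number occurs in both regions.

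Deep cortical layers hold the neurons that send axons out of the cortex. Layer 5 neurons project to the spinal cord, brainstem, striatum and opposite hemisphere, layer 6 neurons project mainly to the thalamus, and layer 6b is the remnant of the embryonic subplate. During development these identities are set by transcription factors that repress one another: Fezf2, through Bcl11b, directs the subcerebral layer 5 fate, and Tbr1 directs the corticothalamic layer 6 fate and restrains Fezf2 and Bcl11b there. Several of these genes are also used outside the deep cortex, for example Bcl11b in hippocampal pyramidal and granule neurons and in striatal projection neurons. A bulk library therefore reads each gene over every cell type that expresses it.

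Positions are from GENCODE M21 on GRCm38. Fezf2 lies on the minus strand at chr14:12342094-12348189 and Bcl11b on the minus strand at chr12:107910403-108003602. Etv1 lies on the plus strand at chr12:38779380-38870484 and Tbr1 on the plus strand at chr2:61802930-61814114. Tle4 lies on the minus strand at chr19:14448150-14598051 and Crym on the minus strand at chr7:120186380-120202111. Ctgf, named Ccn2 in that annotation, lies on the plus strand at chr10:24595442-24598683. In Ctgf, 665 exon bases are shared with Gm15270, a noncoding gene on the opposite strand. Whether the counting used strand is not given, so reads of that stretch cannot be assigned with certainty. No other annotated gene overlapped the exons of the other members.

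The sequences shown are the 250 bases before a RefSeq start (GRCm38.p6) of Etv1 and of Tbr1, the members that fell in cKO cortex and whose genotype effect also differed between regions. They were searched on both strands for forkhead letters, where N is any base. The canonical form is TGTTTAC, a looser form that contains it is TGTTTNC, and the third form is TATTTNT. The Etv1 window, chr12:38779832-38780081 on the plus strand, lies inside the annotated gene span and touches no exon. It holds 1 match, to TATTTNT on the minus strand, which starts 237 bases before the start and is printed in capitals. The Tbr1 window, chr2:61804203-61804452 on the plus strand, overlaps an exon of a noncoding Tbr1 transcript and holds none of these letters.
Etv1: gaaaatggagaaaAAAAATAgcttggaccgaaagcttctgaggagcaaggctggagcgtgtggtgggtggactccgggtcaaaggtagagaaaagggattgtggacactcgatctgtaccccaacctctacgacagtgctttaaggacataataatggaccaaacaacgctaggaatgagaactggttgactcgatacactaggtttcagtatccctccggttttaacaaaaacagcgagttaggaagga
Tbr1: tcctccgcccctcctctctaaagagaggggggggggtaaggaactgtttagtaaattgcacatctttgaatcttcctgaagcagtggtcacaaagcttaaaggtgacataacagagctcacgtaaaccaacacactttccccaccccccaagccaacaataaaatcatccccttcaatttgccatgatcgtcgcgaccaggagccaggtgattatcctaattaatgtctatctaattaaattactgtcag
Of 32851 RefSeq windows of that length, 3.17% hold TGTTTAC, 17.8% hold TGTTTNC and 16.95% hold TATTTNT, so such matches are frequent. RefSeq windows were matched for 5 of the 7 members, Etv1 and Tle4 having 2 each. The second Etv1 window holds 1 match, to TGTTTNC, which starts 64 bases before the start. The Bcl11b window holds 3 matches, of which 2 are to TATTTNT. Those windows overlap annotated UTRs and are not printed. The Fezf2 window and both Tle4 windows hold none of these letters. A match is a description of letters and not a binding site.

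Depth was 8160441 to 9164571 reads in cKO cortex and 7075560 to 9037821 in control cortex. It was 6943136 to 14055344 reads in cKO hippocampus and 9578904 to 14817870 in control hippocampus. A single read was worth 0.0675 to 0.144 counts-per-million (CPM). The smallest member count in any library was 93 reads, for Crym in control cortex. Foxp1 averaged 113 ± 21.2 CPM in cKO cortex and 284 ± 14.1 CPM in control cortex, and 119 ± 16.0 CPM in cKO hippocampus and 227 ± 45.3 CPM in control hippocampus (SD, n = 4 each). Its ranges did not overlap between genotypes in either region. Among sums of oligodendrocyte and choroid plexus genes, 3 libraries stood apart. Control hippocampus DJ17 had a summed level of 8 oligodendrocyte genes of 12988 CPM, against 4973 to 6825 CPM in the other hippocampal controls. It also had the lowest Fezf2, Etv1, Tbr1 and Crym and the highest Bcl11b, Tle4 and Ctgf of the hippocampal controls, and a summed level of 14 striatal neuron genes of 1156 CPM, against 235 to 620 CPM in the others. The striatal sum was higher still in cKO hippocampus DJ15, at 1279 CPM, against 606 to 942 CPM in the other cKO hippocampus libraries. That library had the highest Tbr1, Tle4 and Ctgf and the lowest Etv1 and Crym of its group. In control cortex DJ3 the striatal sum was 303 CPM, against 435 to 660 CPM in the other control cortex libraries. The summed level of 6 choroid plexus genes was 230.5 CPM in cKO cortex DJ1, against 5.25 to 9.93 CPM in the other cKO cortex libraries. It was 156.3 CPM in control cortex DJ6, against 3.34 to 10.2 CPM in the other control cortex libraries. Member results that rest on DJ17, DJ1 or DJ6 are also given without DJ17 and without DJ1 and DJ6 together. The second of these alternatives was chosen after seeing the data.

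**Figure D1:**
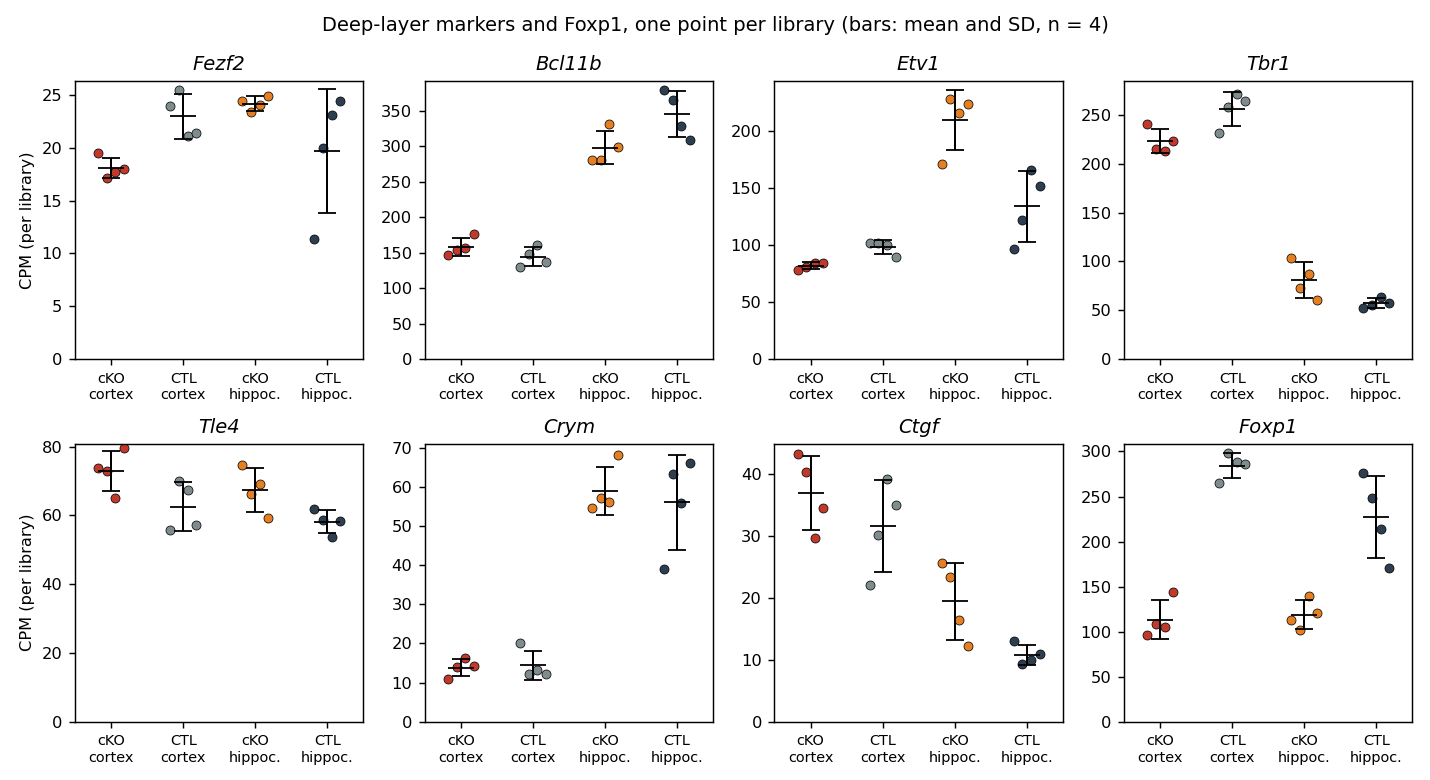
Level of each member and of Foxp1 in CPM (linear axis from 0), 1 point per library, in cKO cortex, control (CTL) cortex, cKO hippocampus and control hippocampus; bars give the mean and SD (n = 4). Fezf2 and Etv1 are lower in all 4 cKO cortex libraries than in any control cortex library, and Bcl11b and Crym are higher in hippocampus than in cortex in both genotypes.

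In cortex the members split by gene rather than moving together. Of the 7, 3 fell in cKO cortex (Fezf2, Etv1 and Tbr1), none rose and 4 did not pass. Falls were called for 5.83% of the 13713 genes tested in cortex and rises for 7.64%, so 13.5% were called in either direction. A gene was called at an adjusted p below 0.05 from limma on log2(CPM + 0.5), with Benjamini-Hochberg adjustment over all genes, and log2 differences are cKO minus control on that scale, with standard errors (SE). Its pseudocount slightly understates changes of low genes. In bulk tissue, fewer cells of a type and less RNA per cell cannot be told apart.

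Fezf2, the zinc finger factor that specifies subcerebral layer 5 neurons, was 19.5, 17.2, 17.7 and 18.004 CPM in cKO cortex DJ1, DJ2, DJ4 and DJ5. It was 23.9, 25.4, 21.1 and 21.4 CPM in control cortex DJ3, DJ6, DJ7 and DJ8. Every cKO library was below every control, and the cKO mean was 78.8% of the control mean. This gave a log2 difference of -0.33 (SE 0.098, limma adjusted p = 0.030). This call was the least stable of the layer 5 factors: limma's adjusted p was 0.062 without control DJ3, 0.11 without control DJ6, 0.082 without cKO DJ2, 0.062 without cKO DJ4 and 0.061 without cKO DJ5.

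Etv1, an ETS-family factor of layer 5 neurons, was 78.3, 80.8, 84.8 and 84.0 CPM in cKO cortex (same order of libraries) and 102, 102, 100 and 89.6 CPM in control cortex. The groups did not overlap, and the lowest control was DJ8. The log2 difference was -0.26 (SE 0.062, limma adjusted p = 0.0080), and leaving out each library in turn kept limma's adjusted p between 0.0053 and 0.032. Bcl11b, the factor downstream of Fezf2 that guides corticospinal axons, was 146, 154, 156 and 176 CPM in cKO cortex and 130, 148, 160 and 137 CPM in control cortex. Its ranges overlapped, and its log2 difference of 0.14 (95% interval -0.01 to 0.28, limma adjusted p = 0.24) had the opposite sign to that of Fezf2.

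Tbr1, the T-box factor of layer 6 corticothalamic neurons, was 240, 215, 213 and 223 CPM in cKO cortex and 231, 258, 271 and 264 CPM in control cortex. The ranges met through cKO DJ1 and control DJ3, the other 3 cKO libraries being below every control. Its log2 difference was -0.20 (SE 0.059, limma adjusted p = 0.032). Limma's adjusted p was 0.078, 0.11 and 0.10 without control DJ6, DJ7 and DJ8, and 0.096, 0.088 and 0.063 without cKO DJ2, DJ4 and DJ5. Tle4, a Groucho-family corepressor also typical of corticothalamic neurons, was 73.9, 73.0, 65.2 and 79.5 CPM in cKO cortex and 55.7, 70.0, 67.3 and 57.3 CPM in control cortex. Its libraries overlapped because cKO DJ4 was low, and its log2 difference was 0.22 (95% interval 0.05 to 0.40, limma adjusted p = 0.091, or 0.046 without cKO DJ4).

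Crym encodes mu-crystallin, a binding protein of thyroid hormone. It was 10.9, 13.8, 16.2 and 14.3 CPM in cKO cortex and 20.04, 12.1, 13.1 and 12.2 CPM in control cortex, where DJ3 stood above the other controls. The log2 difference was -0.04 (95% interval -0.37 to 0.30, limma adjusted p = 0.93). It changed sign to 0.13 without control DJ3 and to 0.07 without cKO DJ1. Ctgf, a secreted matrix-associated protein that marks layer 6b, was 43.1, 40.3, 29.7 and 34.5 CPM in cKO cortex and 21.99, 30.1, 39.1 and 35.03 CPM in control cortex. The groups overlapped broadly, with a log2 difference of 0.24 (95% interval -0.07 to 0.55, limma adjusted p = 0.34).

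Ranges did not overlap between genotypes in cortex for 2 of the 7 members (Fezf2 and Etv1), against 17.7% of all genes tested. The median log2 difference over the members was -0.04, beside 0.03 over all genes. All 3 falls were lost when 16 libraries were fitted together, since that fit pools the spread of cortex and hippocampus: limma's adjusted p was then 0.21 for Fezf2, 0.31 for Tbr1 and 0.20 for Etv1. Without cKO DJ1 and control DJ6, the libraries high in choroid plexus genes, limma called Tbr1 alone (log2 difference -0.23, adjusted p = 0.029), while Fezf2 (-0.32, adjusted p = 0.086) and Etv1 (-0.22, adjusted p = 0.057) kept their sign and lost the call. In the 5 cortex libraries DJ4 to DJ8 alone (2 cKO, 3 control), Tbr1 was the member still called. The authors' deposited table of genes changed in cKO cortex lists none of the 7. It holds 874 genes, where limma called 1847 here, and its cutoffs were not compared with the one used here. EdgeR and DESeq2 each called Fezf2, Etv1 and Tbr1 as lower in cKO cortex.

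Markers of other cell types moved with the cortical comparison. The summed level of 8 oligodendrocyte genes was 2974 to 4013 CPM in cKO cortex and 5006 to 6858 CPM in control cortex, with 7 of the 8 genes lower. The summed level of 14 striatal projection neuron genes was 762 to 1159 CPM in cKO cortex and 303 to 660 CPM in control cortex, with 9 higher (4 under robust variances). Bcl11b is itself expressed by striatal neurons. The summed level of 6 astrocyte genes (2089 to 2393 CPM in cKO, 1947 to 2343 CPM in control cortex) and that of 6 microglia genes (180.3 to 219 CPM in cKO, 180.1 to 244 CPM in control) overlapped. With limma 0 of these 12 genes were called, 1 having an unadjusted p below 0.05, and edgeR and DESeq2 called 0, and limma after quantile normalization called 1 astrocyte gene as higher. Over all 12 other settings, 0 to 2 astrocyte genes and 0 microglia genes were called. Of 6 genes shared by excitatory neurons, 1 fell and 5 did not pass, with 4 at an unadjusted limma p below 0.05 and a median log2 difference of -0.15, and Camk2a was the most abundant. In this list 2 genes fell without cKO DJ1 or without cKO DJ4, and 2 rose and 2 fell in libraries DJ4 to DJ8 alone. No gene of these lists was at 0 in a whole group. The part of these shifts in the members' values was not tested.

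Other genes of the same layers give the setting of these falls. Of 9 other layer 5 genes, 3 fell and none rose in cKO cortex, with a median log2 difference of -0.20. Deptor, an inhibitor of mTOR kinase, was 25.1 ± 0.749 CPM in cKO cortex and 79.9 ± 5.06 CPM in control cortex (SD, n = 4 each; log2 difference -1.65, SE 0.072, limma adjusted p = 1.7e-10). Pcp4, which binds calmodulin, was 224 ± 36.2 CPM in cKO and 289 ± 16.5 CPM in control cortex (log2 difference -0.38, limma adjusted p = 0.0051). Parm1 was 77.2 ± 6.95 CPM in cKO and 93.4 ± 5.85 CPM in control cortex (log2 difference -0.28, limma adjusted p = 0.015, or 0.065 without control DJ6 and 0.13 without both DJ1 and DJ6).

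Of 9 other corticothalamic layer 6 genes, 4 rose and none fell, with a median of 0.27, while under quantile and under median-of-ratios scaling 3 rose and 1 fell. Col5a1, a fibrillar collagen chain, was 39.8 ± 3.77 CPM in cKO cortex and 19.3 ± 1.74 CPM in control cortex (log2 difference 1.03, limma adjusted p = 9.1e-07). Foxp2, a forkhead factor related to Foxp1, was 56.6 ± 7.50 CPM in cKO and 43.5 ± 4.91 CPM in control cortex (log2 difference 0.37, limma adjusted p = 0.014, or 0.061 without control DJ8 and 0.057 without both DJ1 and DJ6). Syt6, a synaptotagmin, was 64.4 ± 7.30 CPM in cKO and 51.9 ± 5.21 CPM in control cortex (log2 difference 0.31, limma adjusted p = 0.023). The Syt6 call was lost with limma without control DJ3 (adjusted p = 0.054), DJ7 (0.064) or DJ8 (0.078) or cKO DJ5 (0.090). It was also lost under quantile scaling (0.060), median-of-ratios scaling (0.051) and edgeR (0.054). The count of corticothalamic rises was 2 without control DJ7, 1 without control DJ8 and 2 without both DJ1 and DJ6. Tbr1, in contrast to these genes, fell.

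Of 6 other layer 6b and subplate genes, 3 rose and 1 fell, with a median of 0.44, and under edgeR, DESeq2 and both scalings 2 rose and 1 fell. Nr4a2, an orphan nuclear receptor, was 168 ± 36.3 CPM in cKO cortex and 71.7 ± 13.9 CPM in control cortex (log2 difference 1.22, limma adjusted p = 5.4e-06). Moxd1, a monooxygenase-like protein, was 12.8 ± 2.53 CPM in cKO and 6.499 ± 0.274 CPM in control cortex (log2 difference 0.91, limma adjusted p = 0.00028). Lpar1, a lysophosphatidic acid receptor that oligodendrocytes also express, was 34.0 ± 4.42 CPM in cKO and 45.6 ± 5.37 CPM in control cortex (log2 difference -0.42, limma adjusted p = 0.0093). By comparison, 7 of 10 upper-layer and layer 4 genes rose and 3 fell in cKO cortex, with a median of 0.44.

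**Figure D2:**
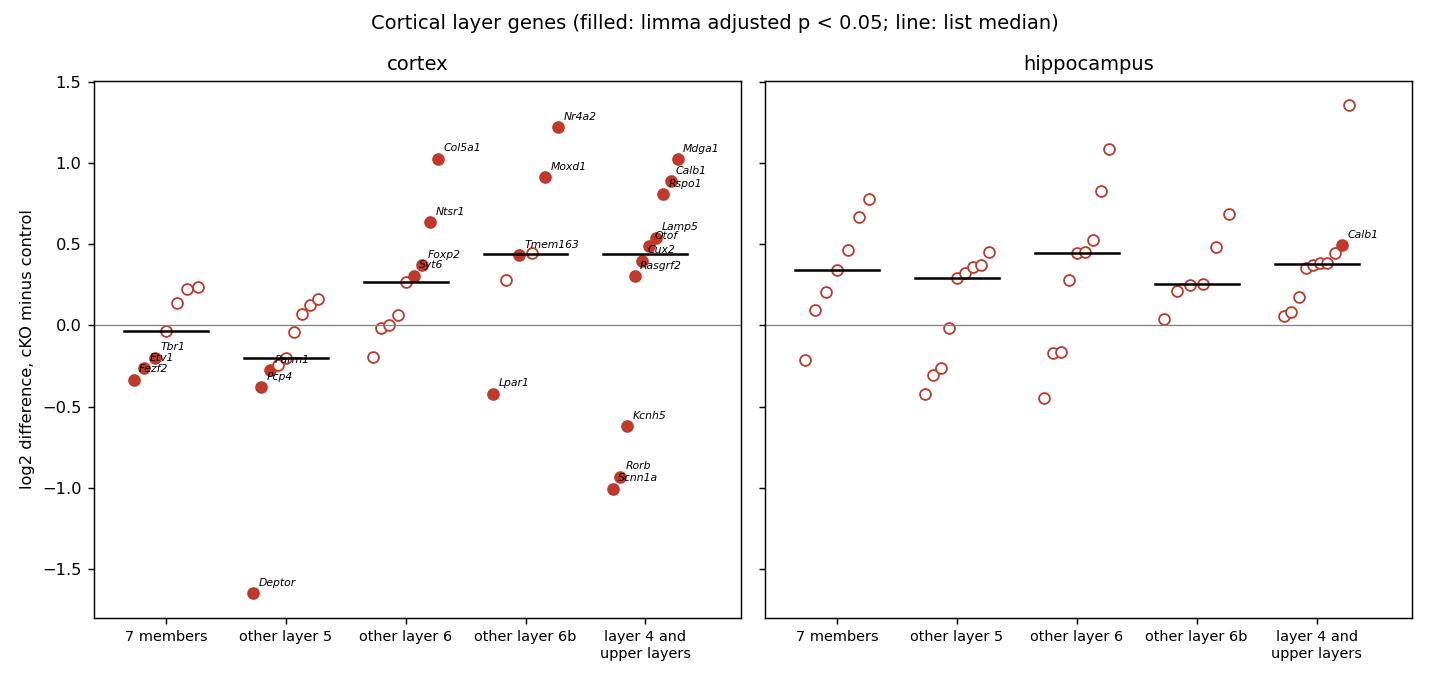
Log2 difference, cKO minus control, of each gene in 5 lists of cortical layer genes, in cortex (left) and hippocampus (right); filled points passed limma at an adjusted p below 0.05 and black lines are list medians. In cortex the called members and other layer 5 genes lie below 0 and the called corticothalamic genes above it, and in hippocampus no point of the members or of the layer 5, 6 and 6b lists is filled.

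Among 12 regulators of projection neuron fate, 2 rose and 1 fell in cKO cortex, or 3 and 2 without cKO DJ1 or cKO DJ4. Cux2, an upper-layer homeodomain factor, was 199.9 ± 4.81 CPM in cKO and 152 ± 6.35 CPM in control cortex (log2 difference 0.40, limma adjusted p = 3.4e-05). Its rise is also counted among those of the upper-layer and layer 4 genes above. Lhx2, a LIM-homeodomain factor, was 57.1 ± 1.96 CPM in cKO and 44.0 ± 5.67 CPM in control cortex (log2 difference 0.38, limma adjusted p = 0.0052). Pou3f1, a POU-domain factor also listed among the CA1 genes, was 15.6 ± 2.29 CPM in cKO and 26.4 ± 2.27 CPM in control cortex (log2 difference -0.75, limma adjusted p = 0.00020). Of 15 paralogs of the members, 11 had enough reads in cortex, and 2 rose. Nov, a CCN protein related to Ctgf, was 327 ± 42.2 CPM in cKO and 132 ± 18.02 CPM in control cortex (log2 difference 1.31, limma adjusted p = 5.3e-08). Tle3, a corepressor related to Tle4, was 45.4 ± 2.50 CPM in cKO and 31.4 ± 4.02 CPM in control cortex (log2 difference 0.53, limma adjusted p = 0.00053).

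In hippocampus none of the 7 members passed limma, where 1.38% of 13899 genes were called (0.662% higher and 0.719% lower). At an unadjusted p below 0.05 with limma there were 5 of 7 members (Etv1, Ctgf, Tbr1, Tle4 and Bcl11b), against 1886 of all genes. EdgeR on the recovered reads called 0 members and DESeq2 called 2, Etv1 (adjusted p = 0.0078) and Ctgf (adjusted p = 0.013). Among 243 genes, the authors' deposited table of hippocampal changes lists these 2 as higher in cKO: Etv1 with their log2 fold change of 0.60 and adjusted p of 3.0e-06, and Ctgf with 0.78 and 0.0019.

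Etv1 was 171, 228, 217 and 224 CPM in cKO hippocampus DJ15, DJ16, DJ18 and DJ19. It was 96.4, 122, 166 and 152 CPM in control hippocampus DJ17, DJ20, DJ21 and DJ22. It was the member whose hippocampal ranges did not overlap, against 8.01% of all genes tested. Its log2 difference was 0.67 (SE 0.15, limma adjusted p = 0.057). It was called with limma without control DJ17 (0.52, adjusted p = 0.046), control DJ21 (0.78, adjusted p = 0.039) or cKO DJ15 (0.76, adjusted p = 0.045). Over all 8 omissions of 1 library, limma's adjusted p for Etv1 ran from 0.039 to 0.20.

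Ctgf was 25.6, 23.3, 16.5 and 12.2 CPM in cKO hippocampus and 13.0, 9.31, 9.89 and 10.9 CPM in control hippocampus (same order of libraries). Of the cKO libraries, DJ19 alone lay within the control range. The log2 difference was 0.77 (SE 0.21, limma adjusted p = 0.098, or 0.037 without cKO DJ19 and 0.067 without control DJ17). Leaving out each library in turn gave limma adjusted p of 0.037 to 0.30 for Ctgf. Tbr1 was 103, 72.3, 86.6 and 60.5 CPM in cKO hippocampus and 52.3, 55.7, 63.8 and 57.8 CPM in control hippocampus. Its log2 difference was 0.46 (SE 0.14, limma adjusted p = 0.14, or 0.17 without control DJ17 and 0.062 to 0.35 over all omissions of 1 library). Here too cKO DJ19 alone lay within the control range.

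Bcl11b was 281, 281, 331 and 298 CPM in cKO hippocampus and 379, 365, 329 and 309 CPM in control hippocampus. Its log2 difference was -0.21 (95% interval -0.38 to -0.04, limma adjusted p = 0.24, or 0.31 without control DJ17), with overlap through cKO DJ18. Tle4 was 74.5, 66.3, 69.1 and 59.3 CPM in cKO and 61.8, 58.7, 53.7 and 58.2 CPM in control hippocampus. Its log2 difference of 0.21 (95% interval 0.03 to 0.38, limma adjusted p = 0.29, or 0.18 without control DJ17) was close in size to that in cortex.

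Fezf2 was 24.4, 23.3, 24.0 and 24.9 CPM in cKO hippocampus and 11.4, 19.97, 23.1 and 24.4 CPM in control hippocampus. The cKO libraries lay close together and the low control was DJ17. The log2 difference was 0.34 (95% interval -0.08 to 0.76, limma adjusted p = 0.46), and 0.11 (adjusted p = 0.65) without control DJ17. Crym was 54.6, 57.0, 56.1 and 68.1 CPM in cKO and 39.0, 63.1, 55.8 and 66.0 CPM in control hippocampus. Its log2 difference was 0.10 (95% interval -0.22 to 0.41, limma adjusted p = 0.82), and it changed sign to -0.07 without control DJ17.

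The other deep-layer lists likewise held 0 calls by limma in hippocampus, among 9 other layer 5 genes, 9 corticothalamic genes and 6 layer 6b genes. At an unadjusted p below 0.05 there were 2, 5 and 0 genes in these lists, edgeR called 0 in each, and DESeq2 called 1 lower layer 5 gene, 1 higher and 1 lower corticothalamic gene, and 0 layer 6b genes. Without control DJ22 or cKO DJ18, limma called 1 corticothalamic gene. The smallest p in each list belonged to Crim1 (log2 difference -0.42, limma adjusted p = 0.086), Col5a1 (1.08, limma adjusted p = 0.059, or 0.037 without control DJ22) and Nxph4 (0.48, limma adjusted p = 0.50). Among 12 fate regulators 1 rose and 1 fell. Lmo4, a LIM-only cofactor, was 266 ± 26.8 CPM in cKO and 188 ± 6.09 CPM in control hippocampus (log2 difference 0.49, limma adjusted p = 0.0061). Pou3f1 was 16.2 ± 2.57 CPM in cKO and 42.8 ± 10.5 CPM in control hippocampus (log2 difference -1.36, limma adjusted p = 0.0026). Of 12 measured paralogs limma, edgeR and DESeq2 called 0, with 2 at an unadjusted limma p below 0.05. Nov had the smallest p among them, at 0.72 (limma adjusted p = 0.14, or 0.045 without control DJ17). Of 6 CA1 genes 4 fell, their summed level being 209 to 262 CPM in cKO and 322 to 416 CPM in control hippocampus, and Man1a was the most abundant. The summed oligodendrocyte level was 6203 to 8839 CPM in cKO and 4973 to 12988 CPM in control hippocampus, and the striatal one was 606 to 1279 CPM in cKO and 235 to 1156 CPM in control hippocampus. The part of these levels in the members' values was not tested.

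**Figure D3:**
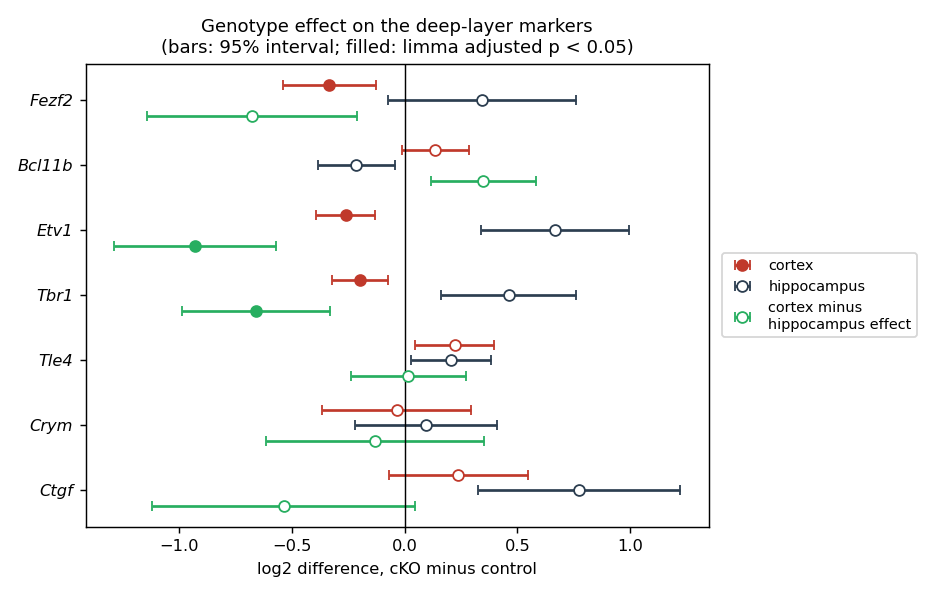
Log2 difference, cKO minus control, of each member in cortex (red) and hippocampus (dark blue), and the cortical effect minus the hippocampal one (green), with 95% intervals; filled points passed limma at an adjusted p below 0.05. Fezf2, Etv1 and Tbr1 lie below 0 in cortex and above it in hippocampus, and the region difference of the effect is filled for Etv1 and Tbr1.

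The genotype effect itself was compared between regions, as the effect in cortex minus that in hippocampus in a fit of all 16 libraries. It differed for 2 of the 7 members, Etv1 and Tbr1, both with the lower effect in cortex. Of 13881 genes, 2.72% were called in this comparison, 1.17% with the lower and 1.55% with the higher effect in cortex. For Etv1 the difference was -0.93 (SE 0.17, limma adjusted p = 0.0047), with adjusted p between 0.00081 and 0.014 when each library was left out and 0.027 without both cortex DJ1 and DJ6. For Tbr1 it was -0.66 (SE 0.16, limma adjusted p = 0.025). That call was lost, at limma adjusted p of 0.051 to 0.057, without control cortex DJ6, DJ7 or DJ8, cKO cortex DJ2 or DJ4, or control hippocampus DJ20, and at 0.059 without both cortex DJ1 and DJ6. It was kept without control hippocampus DJ17 (0.028).

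Fezf2 had a region difference of the same size that did not pass, at -0.68 (SE 0.22, limma adjusted p = 0.13), and at -0.44 (adjusted p = 0.059) without control hippocampus DJ17. Bcl11b pointed the other way, at 0.35 (SE 0.11, limma adjusted p = 0.11), or 0.30 (adjusted p = 0.14) without DJ17. The value for Ctgf was -0.54 (95% interval -1.12 to 0.05), for Crym -0.13 (-0.62 to 0.35) and for Tle4 0.02 (-0.24 to 0.27). Without DJ17 the value for Ctgf was -0.63 (limma adjusted p = 0.26), and the sign changed for Crym (0.03) and Tle4 (-0.01). Among the other layer 5 genes 1 differed between regions, with the lower effect in cortex (2 without control hippocampus DJ17 or DJ22 or cKO hippocampus DJ15), and 6 of the 9 had an unadjusted limma p below 0.05. With cortex DJ4 to DJ8 and hippocampus DJ18 to DJ22 as the fitted libraries, 5 of these layer 5 genes were called, 4 with the lower and 1 with the higher effect in cortex. Among corticothalamic and layer 6b genes limma called 0 of 9 and 0 of 6 (unadjusted limma p below 0.05 for 0 and 3; edgeR called 0 in both, DESeq2 0 and 1). In layer 6b, limma called 1 gene without cKO cortex DJ4, control hippocampus DJ17 or DJ21, or cKO hippocampus DJ15.

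Markers of other cell types moved with this comparison as well. Limma called 0 of 8 oligodendrocyte genes, but 7 had an unadjusted p below 0.05, with a median region difference of -0.76. EdgeR and DESeq2 also called 0, and limma called 7 without control hippocampus DJ17, all with the lower effect in cortex. Of 6 CA1 genes 4 were called, with the higher effect in cortex and a median of 1.05, or 2 without both cortex DJ1 and DJ6. The part of these shifts in the members' region differences was not tested.

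Levels across the 4 groups give the amount of each member's RNA in the tissue of each region. To compare genes, CPM were divided by the kilobases of merged exon, which join all annotated exons of a gene. The length of the transcripts expressed was not measured, so the order of genes depends on the annotation. On this scale Tbr1 was the most abundant member in control cortex, at 46.7 CPM per kilobase, followed by Bcl11b at 17.7. Ctgf and Tle4 both stood at 11.0, Fezf2 at 7.53, Etv1 at 7.40 and Crym at 4.24 CPM per kilobase. In control hippocampus the order changed: Bcl11b was at 42.6, Crym at 16.5, Tbr1 at 10.5, Tle4 at 10.2, Etv1 at 10.1, Fezf2 at 6.47 and Ctgf at 3.77 CPM per kilobase. All 7 genes were thus detected in every hippocampal library, and which cells gave these reads was not tested.

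In controls 2 members were higher in cortex than in hippocampus, 3 were lower and 2 did not pass, in a comparison where 38.0% of all genes were called (16.7% higher and 21.3% lower in cortex). Tbr1 averaged 256 ± 17.6 CPM in control cortex and 57.4 ± 4.82 CPM in control hippocampus (SD, n = 4 each), a log2 difference of 2.15 (limma adjusted p = 8.9e-12). Ctgf averaged 31.6 ± 7.38 CPM in control cortex and 10.8 ± 1.64 CPM in control hippocampus, a log2 difference of 1.49 (limma adjusted p = 4.6e-06). Crym averaged 14.4 ± 3.81 CPM in control cortex and 56.0 ± 12.1 CPM in control hippocampus, a log2 difference of -1.93 (limma adjusted p = 1.1e-08). Bcl11b averaged 144 ± 13.3 CPM in control cortex and 346 ± 32.3 CPM in control hippocampus, a log2 difference of -1.26 (limma adjusted p = 1.3e-10). Etv1 averaged 98.5 ± 5.93 CPM in control cortex and 134 ± 31.3 CPM in control hippocampus, a log2 difference of -0.42 (limma adjusted p = 0.010). Fezf2 (0.27, 95% interval -0.06 to 0.59) and Tle4 (0.10, -0.08 to 0.28) did not pass. Without control hippocampus DJ17 the Fezf2 difference was 0.03 (limma adjusted p = 0.85) and that of Etv1 was -0.57 (limma adjusted p = 0.00011). The other members then differed by 2.11 (Tbr1), 1.58 (Ctgf), -2.09 (Crym), -1.21 (Bcl11b) and 0.13 (Tle4), and the same 5 members were called, as they also were without both cortex DJ1 and DJ6. Ranges did not overlap for 4 of the 7, against 36.8% of all genes tested.

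In cKO mice the same 2 members were higher in cortex and 4 were lower, where 37.3% of all genes were called (15.2% higher and 22.2% lower). Tbr1 averaged 223 ± 12.4 CPM in cKO cortex and 80.6 ± 18.3 CPM in cKO hippocampus, a log2 difference of 1.49 (limma adjusted p = 2.7e-09). Etv1 averaged 82.0 ± 3.01 CPM in cKO cortex and 210.1 ± 26.3 CPM in cKO hippocampus, a log2 difference of -1.34 (limma adjusted p = 3.9e-08). Ctgf differed by 0.95, Bcl11b by -0.91 and Crym by -2.06, all passing limma. Fezf2 averaged 18.1 ± 0.987 CPM in cKO cortex and 24.2 ± 0.666 CPM in cKO hippocampus, a log2 difference of -0.41 (limma adjusted p = 0.047). That call was lost without any one of the 8 cKO libraries in turn (limma adjusted p = 0.055 to 0.098) and without both cortex DJ1 and DJ6 (0.062), although the ranges did not overlap. These fits also take in the spread of control hippocampus, where Fezf2 had an SD of 5.87 CPM. Limma kept the call when the cKO libraries alone were fitted. Tle4 differed by 0.12 (95% interval -0.06 to 0.30). Ranges did not overlap for 6 of the 7, against 33.0% of all genes tested. Markers of other cell types also differed between the regions. Of 8 oligodendrocyte genes 7 were lower in cortex in cKO mice, with a median log2 difference of -0.93. In controls limma called 0 of these 8, with 0 at an unadjusted p below 0.05 and a median of -0.19. All 6 choroid plexus genes were lower in cortex, with a median of -4.09 in cKO mice and -3.93 in controls. Of 6 CA1 genes 3 were lower in cortex in cKO mice and 6 in controls. The part of these differences in the members' values was not tested.

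**Figure D4:**
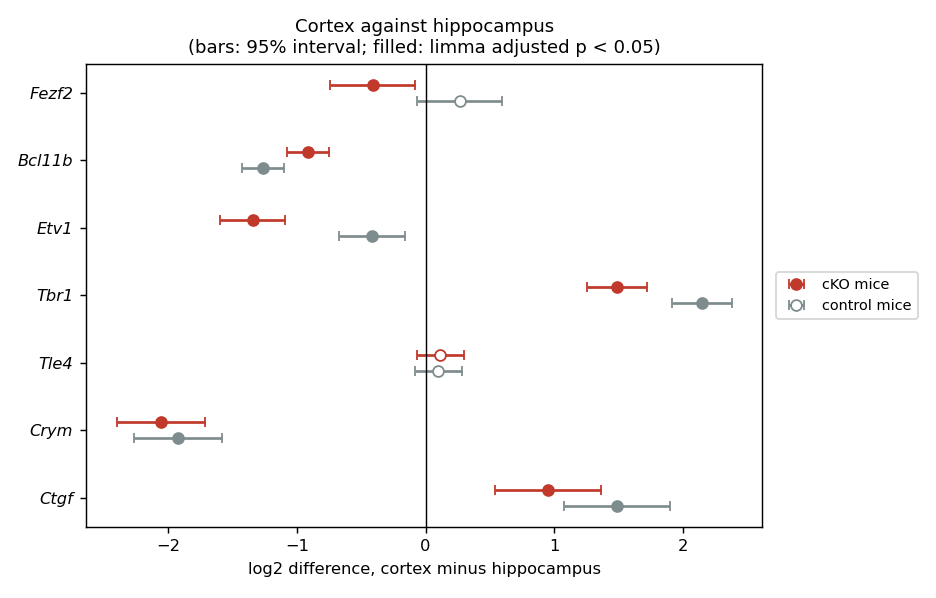
Log2 difference, cortex minus hippocampus, of each member in cKO mice (red) and control mice (grey), with 95% intervals; filled points passed limma at an adjusted p below 0.05. Tbr1 and Ctgf lie above 0 and Bcl11b, Etv1 and Crym below it in both genotypes, while Fezf2 is filled, below 0, in cKO mice and open, above 0, in controls.

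The order of group means differed from gene to gene. For Tbr1 it ran control cortex, cKO cortex, cKO hippocampus and control hippocampus from high to low, with separated ranges between cKO cortex and cKO hippocampus alone. For Etv1 it ran cKO hippocampus, control hippocampus, control cortex and cKO cortex, and control hippocampus and control cortex were the neighbours that overlapped. For Bcl11b and Crym the hippocampal groups stood above the cortical ones, and the genotypes overlapped within each region. For Ctgf cKO cortex came first, then control cortex, cKO hippocampus and control hippocampus, and for Fezf2 and Tle4 as for Ctgf every pair of neighbours overlapped.

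Genes with the most similar profile were sought among 12740 genes by the root mean square difference of centred log2(CPM + 0.5) over the 16 libraries. Tle4 had the closest neighbours, Cdv3 (0.104), Ankrd26 (0.106) and Kat6b (0.107). Bcl11b was nearest to Clmn (0.112), Orai2 (0.144) and Sema5a (0.148), and Fezf2 to Cnih3 (0.153), Tle2 (0.178) and Peli3 (0.187). Tbr1 was nearest to Stx1a (0.178), Ipcef1 (0.181) and Herc6 (0.203), and Etv1 to Zfp423 (0.195), Spon1 (0.203) and Zdbf2 (0.205). Crym was nearest to Slit1 (0.202), Nrp1 (0.208) and St6galnac5 (0.229), and Ctgf to Cdc42ep3 (0.201), Rxfp1 (0.259) and Kcnv1 (0.275). No member was among the 3 nearest genes of another. The closest members were Fezf2 and Tle4 (0.347), and the farthest were Tbr1 and Crym (1.94). This measure is not scaled by how much a gene varies, so genes that vary little lie close together whatever their pattern. Fezf2 and Tle4 had opposite signs of the genotype difference in cortex (-0.33 and 0.22). These likenesses rest on the differences between groups: with group means removed, each member shared 0 of its 3 nearest genes with the list above.

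A deposited list of the authors gives genes changed with a heterozygous Foxp1 knockout, without values, and its header does not name a tissue. It names Bcl11b, Tbr1 and Crym among 724 genes listed as lower and none of the 7 among 652 listed as higher. Of these 3, Tbr1 fell in cKO cortex here (log2 difference -0.20), and Bcl11b (0.14) and Crym (-0.04) did not pass. In hippocampus none of the 3 passed limma. The log2 differences there were 0.46 for Tbr1, -0.21 for Bcl11b and 0.10 for Crym, so with all libraries Bcl11b alone had the listed sign. Without control hippocampus DJ17 the value for Crym was -0.07, which also has the listed sign. Whether 3 of 7 members exceeds the share of all genes listed as lower was not tested.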

How the data were processed

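The authors deposited CPM for 21999 genes in 16 libraries. The submitters' processing notes name STAR, HTSeq and edgeR and the builds mm10 and GRCm38; their versions, the annotation and the strand of counting are not stated there. The deposited CPM of every library were whole multiples of 1 read (100% of values, tolerance 0.001 reads), so counts were recovered. Depth was 6943136 to 14817870 reads. Intervals on log2 differences cover the spread between these libraries. The authors' deposited tables of called genes give log2 fold changes and adjusted p-values, per the file headers.

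Genes averaging 0.5 CPM or more in the fitted libraries were tested with limma 3.58.1 (R 4.3.3, mean-variance trend) on log2(CPM + 0.5): genotype within each region over 8 libraries, and regions and the difference of genotype effects over 16 libraries with 4 group means. Benjamini-Hochberg adjusted p below 0.05 was called. A hippocampus and a cortex may come from the same mouse; this is not given and was not modelled. Alternatives were pseudocounts of 0.1 and 1, no minimum or 1 CPM, quantile and median-of-ratios scaling, robust variances, edgeR 4.0.16 (quasi-likelihood) and DESeq2 1.42.0 on recovered reads, other sets of libraries, leaving out each library, and, added after seeing the data, leaving out cortex DJ1 and DJ6 together. The fits were run on simulated counts with known changes, drawn with the same dispersion for every gene. The simulation held no outlying library, so it does not test the fits under the spread of these libraries.

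The members, gene lists and tests were chosen with earlier results of these data known. All members were named, with up to 3 called genes of smallest p from each layer, regulator and paralog list in each region (without calls, the gene of smallest p), the most abundant gene of a marker list (for some lists not reported here), and for each member the 3 genes of most similar profile averaging 1 CPM or more, passing over predicted and clone gene models. Lists of interneuron, endothelial, choroid plexus, subiculum, dentate, and CA2 and CA3 genes are described under the other observations.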

Additional observations from a re-analysis of the deposited data

Results flagged for a closer look

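The genotype effect differed between cortex and hippocampus for 2 members by limma's test of the difference itself. For Etv1 the cortical effect minus the hippocampal one was -0.93 on the log2 scale (adjusted p = 0.0047), with the cKO mean below the control mean in cortex and above it in hippocampus. For Tbr1 it was -0.66 (adjusted p = 0.025), with the same pattern of signs. Over 32 sets of 4 libraries (7 members and Foxp1 in 4 groups), 2 held a library far from the other 3 by Dixon's criterion, where chance gives about 1 in 20. Etv1 in control cortex was lowest in DJ8, at 89.6 CPM. Crym in control cortex was highest in DJ3, at 20.04 CPM.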

How the results depend on the processing

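In cortex 3 members were called under every change of pseudocount, minimum, scaling or test, 1 in libraries DJ4 to DJ8 alone, 1 without both DJ1 and DJ6 (chosen after seeing the data), 0 with all 16 libraries in one fit and 1 to 3 when a library was left out. In hippocampus 0 were called, but 2 with DESeq2, 1 in libraries DJ18 to DJ22 alone, 3 in the fit of 16 libraries and 0 to 1 when a library was left out; over all genes the count was 192, 435 with DESeq2, 446 in the fit of 16 libraries and 56 to 295 when a library was left out. For the region difference of the effect 2 members were called, 1 with no minimum (Tbr1, adjusted p = 0.053), 1 without both DJ1 and DJ6, and 1 to 2 when a library was left out; over all genes 378, or 772 in the smaller set of libraries, 236 without both DJ1 and DJ6 and 248 to 699 when a library was left out. In controls 5 members differed between regions throughout, and in cKO mice 5 to 6, Fezf2 being lost with no minimum (0.071), quantile scaling (0.072), median-of-ratios scaling (0.063) and edgeR (0.055). Apart from the fits of fewer or more libraries, the causes were not tested.

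In cortex the fit of 16 libraries called 1 of the other layer 5 genes (3 in the cortical fit), 1 corticothalamic gene (4), 2 layer 6b genes (4), 6 upper-layer and layer 4 genes (10), 4 oligodendrocyte genes (7) and 2 striatal genes (9), and libraries DJ4 to DJ8 alone gave 2 corticothalamic genes and 5 fate regulators (3). Median-of-ratios scaling changed the higher and lower calls to 829 and 951 in cortex (limma on CPM 1047 and 800) and to 60 and 135 in hippocampus (92 and 100), and quantile scaling changed those between regions in cKO mice to 2697 and 2581 (2105 and 3076). In the smaller set of libraries the sign reversed for Crym (0.28) and Ctgf (-0.11) in cortex and for the region difference of Tle4 (-0.015) and Crym (0.27). Leaving out 1 library also reversed Crym in cortex (-0.11 to 0.13) and hippocampus (-0.065 to 0.18), and the region difference of Tle4 (-0.043 to 0.072) and Crym (-0.22 to 0.034). No paired analysis was possible because the groups compared share no replicate number. Crym in cortex had the smallest member count, at 93 reads. Limma's SE in cortex was 0.16 for Crym and 0.059 for Tbr1, and the part of depth in these was not tested.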

Other observations

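Genes of other hippocampal fields and cell types, listed with the members, were also read. In cKO cortex 2 of 5 measured CA1 genes rose and 1 fell, 2 of 5 CA2 and CA3 genes rose (1 without control DJ7 or cKO DJ1), 2 of 5 dentate granule cell genes rose and 2 of 4 subiculum genes rose. The summed level of the 7 dentate genes was 349.8 to 394 CPM in cKO cortex and 247 to 278 CPM in control cortex, most of it from Stxbp6. That of the 4 subiculum genes was 174 to 179 CPM in cKO and 116 to 160.0 CPM in control cortex, Fn1 being the most abundant, and that of the 6 CA2 and CA3 genes was 98.1 to 107 CPM in cKO and 74.1 to 80.8 CPM in control cortex, Grik4 being the most abundant. Of 9 interneuron genes 2 fell, with Gad2 the most abundant. In cortex 0 of 11 endothelial, mural and meningeal genes (Flt1 the most abundant) and 0 of 4 measured choroid plexus genes (Ttr the most abundant) were called by limma, with 1 and 0 at an unadjusted p below 0.05. In hippocampus 1 of 6 CA2 and CA3 genes rose and 1 of 7 dentate genes fell. Neither call was kept without control DJ20 or DJ21 or cKO DJ15, DJ16 or DJ19. The first was also lost without control DJ22 and the second without control DJ17, while 2 dentate genes fell without cKO DJ18.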
